A study of Mus musculus with 15 samples.

Results

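Gene expression in untreated mouse embryonic stem (ES) cells was compared between cells carrying the short hairpin RNA sh4 and cells carrying the control hairpin shCTR. ES cells are pluripotent cells of the early embryo kept in culture, and a short hairpin RNA is cut in the cell to a small interfering RNA that lowers its target messenger RNA. The comparison uses 8 of the 15 arrays of the series, chosen by their labels: 4 of cells transfected with sh4 and 4 of cells transfected with shCTR, all with the treatment given as none. No label states the target of sh4; Phf19 stands in the title of the series and was therefore examined first. A single hairpin stands for the knockdown, so changes that follow from lower Phf19 and changes from any other target of sh4 cannot be told apart. The cell line, its genotype, the time since transfection and the sequence behind shCTR are not given in the sources used here. The titles call the replicates biological without saying whether cultures were separate. A p-value or ± value here covers only the spread among replicates, which may be technical. That spread was estimated per gene over all 15 arrays, so it includes the 7 arrays of cells treated with retinoic acid.

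Polycomb repressive complex 2 (PRC2), which Phf19 joins as an accessory protein, is the enzyme complex that methylates lysine 27 of histone H3 and keeps developmental genes silent in ES cells. Phf19 belongs to the Polycomb-like family, whose Tudor domain binds histone H3 methylated at lysine 36, a mark of transcribed genes. In ES cells PRC2 lies mainly at CpG-rich promoters of genes that set later lineages.

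Each total RNA sample was hybridised alone to a 1-colour Agilent array. On the untreated arrays 73.8% to 77.5% of probes were well above background and no spot was saturated. Levels below are log2 signals relative to the 75th percentile of the same array, and a change is the sh4 mean minus the shCTR mean on that log2 scale, ± the standard error (SE). Over the 25137 genes tested, replicates differed from each other by a root mean square of 0.558 log2 units in sh4 and 0.492 in shCTR. The scanner software rated sh4 replicate 3 and shCTR replicate 2 as needing evaluation. The words rose, fell and changed are kept for genes with an adjusted p of limma under 0.05.

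Phf19 was lower on all 4 sh4 arrays. Its log2 level was -2.61, -2.54, -2.51 and -2.54 in sh4 replicates 1 to 4 and -0.93, -0.98, -0.70 and -0.69 in shCTR replicates 1 to 4, and the groups did not overlap. The sh4 cells kept 30.2% of the control level (change -1.73 ± 0.087, adjusted p = 7.4e-09). Of the 13 PRC2 subunits and cofactors measured, 3 fell, Phf19 included, and 1 rose (23.1% and 7.69%, against 14.1% and 14.4% of all genes tested). Phf19 was examined as the gene of the series title, so its own fall adds nothing to that comparison. Only Suz12 and Epop fell beside it, which shows no excess of falls in the list. Suz12, a core subunit that stabilises the complex, fell along with Phf19 (-0.56 ± 0.072, adjusted p = 4.6e-05), as did Epop, which links PRC2 to elongin (-0.74 ± 0.18, adjusted p = 0.0061). Suz12 stood at 1.53, 1.39, 1.39 and 1.43 in sh4 and 2.11, 2.01, 1.91 and 1.95 in shCTR, without overlap, so sh4 held 67.8% of the control RNA. Ezh1, the homologue of Ezh2 that prevails in non-dividing cells, rose by 0.33 ± 0.059 (adjusted p = 0.00068), a call that scaling to the array median lost (adjusted p = 0.073). Ezh2, the main methyltransferase of ES cells, measured -0.10 ± 0.057, and the core subunit Eed measured -0.18 ± 0.073. The substoichiometric partners Jarid2 and Aebp2 measured -0.079 ± 0.084 and -0.19 ± 0.075, and the histone chaperones Rbbp4 and Rbbp7 0.11 ± 0.12 and 0.25 ± 0.15. Aebp2 passed as lower with slide as a block (adjusted p = 0.046). Ezhip, an inhibitor of PRC2 in germ cells, measured 0.019 ± 0.074. The other Polycomb-like proteins, Mtf2 and Phf1, measured -0.14 ± 0.078 and -0.20 ± 0.13; Phf1 passed the threshold with the replicate number as a block (adjusted p = 0.042). Rbbp7 rose by 0.44 (adjusted p = 0.0049) once sh4 replicate 3 was left out.

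PRC2 is opposed by H3K27 demethylases and the COMPASS methyltransferases. Of 16 such enzymes and subunits, 2 rose and 2 fell (12.5% each way), with a median change of -0.012. Kmt2d, a histone H3 lysine 4 methyltransferase of enhancers, rose by 0.45 ± 0.063, and Wdr5, a scaffold of the COMPASS complexes, fell by 0.39. Among 18 genes of DNA methylation, 2 rose and 2 fell (11.1% each way). Neither this list nor the one before exceeded the shares of all genes tested, 14.4% higher and 14.1% lower. Dnmt3b, a de novo methyltransferase that is high in the epiblast after implantation, rose by 1.29 ± 0.065 (adjusted p = 7.3e-09), from 3.92, 3.90, 4.05 and 4.08 in shCTR to 5.16, 5.30, 5.33 and 5.32 in sh4, with no overlap. Tet2, which oxidises methylated cytosine, fell by 0.75 (adjusted p = 4.3e-06). The maintenance enzyme Dnmt1 measured -0.035 ± 0.12.

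Across the array, 7155 of 25137 genes changed, which is 28.5%. Of these 3612 (14.4% of all tested) were higher and 3543 (14.1%) lower in sh4. Counts of list members are to be read against these shares. At least 2-fold changes were a smaller set, 780 rises (3.1%) and 859 falls (3.42%). Large fitted changes were mostly rises: 164 genes rose and 83 fell at least 4-fold, and 47 rose and 3 fell at least 8-fold. These counts include genes below background in 1 hairpin group, whose fold changes depend on the background correction. The median change over all genes was 0.018. Among the changed genes 7079 had the same sign on each of the 4 slides, which choosing them on the same arrays makes likely by itself. The 2 groups did not overlap for 6325 of the changed genes and for 28.2% of all genes tested. With the replicate number as a block, 8153 genes changed. A normexp background correction, which adds an offset and shrinks differences of dim probes, left 4634 changed genes. Under it a called gene below is given a second value where that was smaller by over 1.5 times. Total RNA comes from the whole culture, so fewer cells of a type and less RNA per cell cannot be told apart.

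**Figure D1:**
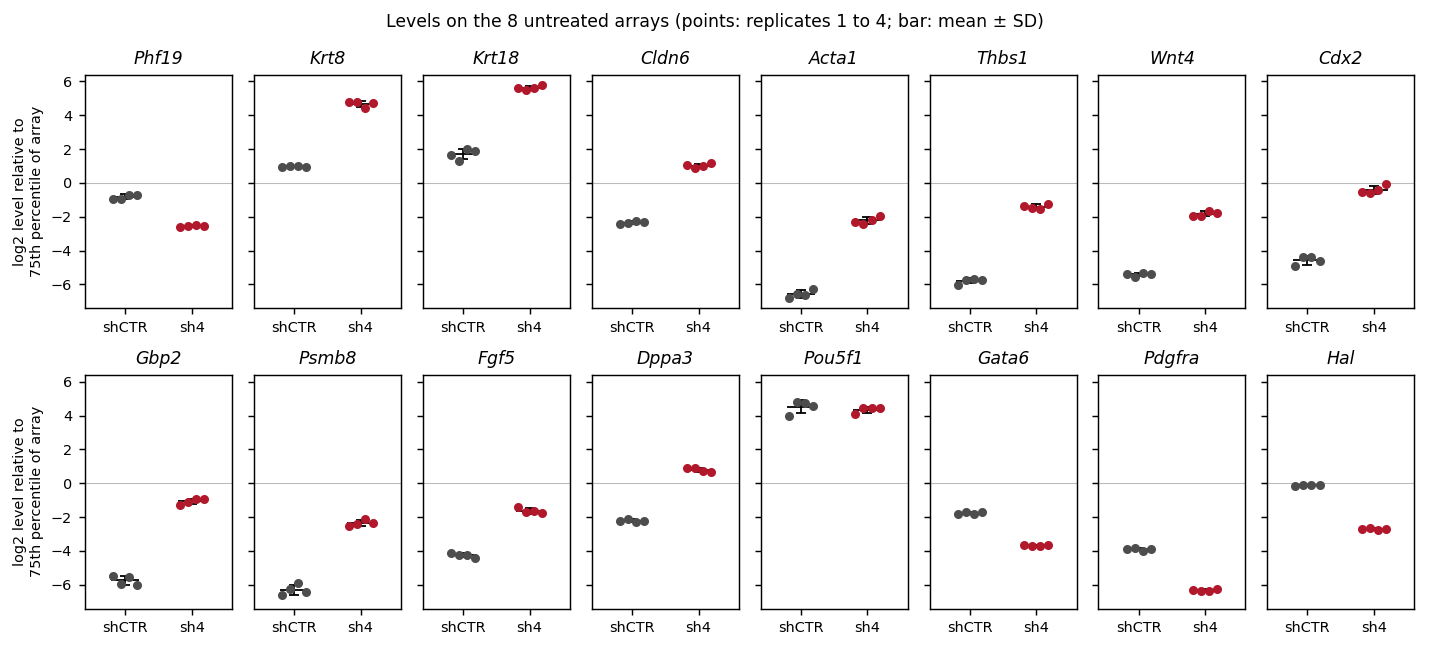
Log2 levels of 16 genes on the 8 untreated arrays, with the y axis relative to the 75th percentile of each array. Points are replicates 1 to 4, and the bar and whiskers show the mean ± SD (n = 4); Phf19, Gata6, Pdgfra and Hal lie lower in sh4, the other genes except Pou5f1 lie higher, and Pou5f1 overlaps between the groups.

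Genes of simple epithelia rose. Keratins are the intermediate filaments of epithelia, and of 8 measured simple epithelial keratins 6 rose and 1 fell, with a median change of 1.81 against 0.018 over all genes. Krt8 and Krt18 pair into the first keratin filaments of the embryo. Krt8 stood at 4.79, 4.78, 4.42 and 4.70 in sh4 and 0.97, 1.00, 1.02 and 0.94 in shCTR, a rise of 3.69 ± 0.10 or 12.9-fold (adjusted p = 4.4e-11). Krt18 stood at 5.61, 5.48, 5.63 and 5.78 in sh4 and 1.67, 1.31, 1.99 and 1.87 in shCTR, a rise of 3.91 ± 0.13 or 15.1-fold (adjusted p = 2e-10). All sh4 arrays lay above all shCTR arrays for both, and the partners were among the brightest of the genes that rose. Krt7, another partner in simple epithelia, rose by 4.02 ± 0.11 (adjusted p = 5.5e-11) and Krt19, which has the same range of tissues, by 2.56 ± 0.18 (adjusted p = 2e-07). Krt23 went the other way and fell by 2.35 (adjusted p = 4.2e-09), while Krt80 measured -0.11 ± 0.29. Normexp correction gave -1.31 for Krt23.

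Junction genes, whose products hold epithelial cells together, rose too. Of 22 tight junction genes, 15 rose and 1 fell (median 0.57). Claudins form the seal between cells. Cldn6, an embryonic claudin, stood at 1.04, 0.88, 1.02 and 1.17 in sh4 and -2.44, -2.40, -2.26 and -2.30 in shCTR, 10.3-fold apart (change 3.37 ± 0.078, adjusted p = 1.5e-11). Cldn7 rose by 3.12 ± 0.11 and Cldn3 by 2.18 ± 0.084, and Patj, a polarity scaffold of the tight junction, by 2.40 ± 0.074 (adjusted p = 3.4e-10, 7.8e-10 and 1.2e-10). The endothelial claudin Cldn5 measured 0.0069 ± 0.13, and Cldn8 was well above background on no untreated array. In the list of desmosomes and adherens junctions 12 of 22 rose and 1 fell (median 0.41). Perp, a desmosomal membrane protein, rose by 1.70 ± 0.073, the desmocollin Dsc2 by 1.64 ± 0.086, the epithelial adhesion molecule Epcam by 1.26 ± 0.076 and P-cadherin, Cdh3, by 1.00 ± 0.073, with adjusted p of 1.9e-09, 1.1e-08, 3.5e-08 and 2.3e-07. With normexp correction Dsc2 measured 0.92. The catenins Ctnna1 and Ctnnb1 measured 0.17 ± 0.086 and 0.011 ± 0.10, and Ctnna1 passed as higher with slide as a block (adjusted p = 0.012). Plakoglobin, Jup, at 0.34 ± 0.17, passed with the replicate block (adjusted p = 0.035).

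Mesenchymal regulators divided. Of 14 factors and markers of epithelial-mesenchymal transition, 6 rose and 6 fell. Zeb1, a repressor of epithelial genes, fell by 1.49 (adjusted p = 6.4e-08), and Foxc2, a mesenchymal forkhead factor, fell by 1.31 (adjusted p = 1.6e-06). Snai3 rose by 0.87 ± 0.12. Twist2, well above background on all sh4 arrays and on 1 shCTR array, measured 1.58 ± 0.20 (adjusted p = 4.1e-05) and lost the call with normexp correction (0.041, adjusted p = 0.88). Foxc2 measured -0.45 and Snai3 0.39 under that correction. Gap junction channels fell more than they rose, 7 of 16 connexins against 1. The rise was in Gja1, the connexin of ES cells and heart (1.40 ± 0.15, adjusted p = 7.4e-06), and Gjb5, which skin and placenta use, fell by 0.94 (adjusted p = 1.5e-07). The count of falls was 4 without sh4 replicate 1 or without sh4 replicate 3, and 3 with normexp correction, where Gjb5 measured -0.55.

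Genes of the actin cytoskeleton rose. Serum response factor (SRF) and its actin-sensing cofactors drive actins and contractile proteins, and of 26 such genes 19 rose and none fell in limma (at an unadjusted p under 0.05, 21 higher and 0 lower), with a median change of 0.95 (0.84 with the gene below background in shCTR set to its bound). Acta1, skeletal muscle actin, stood at -2.30, -2.40, -2.22 and -1.94 in sh4 and -6.79, -6.57, -6.64 and -6.27 in shCTR. That is a rise of 4.35 ± 0.20 or 20.4-fold with no overlap (adjusted p = 3.1e-09). The smooth muscle actin Acta2 rose by 2.96 ± 0.15 (adjusted p = 6e-09) and Fhl2, a LIM protein that binds actin and SRF, by 2.76 ± 0.072 (adjusted p = 3.1e-11). Fhl2 went from -3.77, -3.87, -3.83 and -3.83 in shCTR to -1.09, -1.12, -1.18 and -0.88 in sh4. Actc1, cardiac actin, was well above background on no shCTR array and on 2 of 4 sh4 arrays and was at least 1.51-fold higher. Here and below, "at least" compares the mean of the bright group with that of the dim group after each dim value is raised to the lowest signal well above background on its array. The adjusted p of its fitted change was 7.1e-08, and with normexp correction the call was lost (adjusted p = 0.96). Acta1 measured 2.08 with normexp correction. Members that did not pass included the enteric actin Actg2 (0.032 ± 0.16), the calponin Cnn3 (0.0064 ± 0.070) and Tagln2 (0.037 ± 0.21).

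The CArG box, the motif that SRF binds, is shown in the promoters of Acta1 and Actc1, taken from the RefSeq promoter table of build GRCm38.p6. Its letters were searched on both strands of the 300 bases from 250 before to 50 after each start. It was found in 1.63% of all 32851 promoters of the table and in 10 of 29 promoters of the 24 listed actin and SRF genes matched there; that of Acta2 is among those without these letters. Capitals mark the match, and each stretch lies upstream of the start, read in the direction of the gene. Acta1 lies at chr8:123894819-123894868 on the minus strand and Actc1 at chr2:114052893-114052942 on the minus strand. A match says nothing on binding.
Acta1: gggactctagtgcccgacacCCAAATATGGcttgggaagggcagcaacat
Actc1: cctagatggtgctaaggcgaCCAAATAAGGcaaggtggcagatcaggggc

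The Hippo pathway effectors YAP and TEAD respond to cell shape and density. In a list of their targets, 17 of 24 genes rose and 1 fell (median 0.77). The list also holds the effectors Yap1, Wwtr1 and Tead1 to Tead4, and the 17 rises include Yap1, Tead1 and Tead3. Thbs1, the matrix protein thrombospondin, stood at -1.35, -1.47, -1.54 and -1.25 in sh4 and -6.01, -5.72, -5.70 and -5.76 in shCTR, 21-fold apart with no overlap (change 4.39 ± 0.12, adjusted p = 3.2e-11). Ccn1, a matricellular protein, rose by 2.13 ± 0.13 (adjusted p = 3e-08), and Ptpn14, a phosphatase that restrains YAP, by 1.59 ± 0.092 (adjusted p = 2.7e-08). Ankrd1, dim in shCTR where 2 arrays were well above background, measured 2.32 ± 0.25 (adjusted p = 8.2e-06) and lost its call under normexp correction (adjusted p = 0.11). Of the effectors themselves, Wwtr1 (TAZ), Tead2 and Tead4 measured -0.0094 ± 0.099, 0.0068 ± 0.078 and 0.054 ± 0.12 and did not pass. Yap1, Tead1 and Tead3, named here after their values were seen, rose by 0.30 ± 0.076, 0.75 ± 0.13 and 1.41 ± 0.069 (adjusted p = 0.0099, 0.00069 and 5.8e-09; 0.58 for Tead3 with normexp correction). Scaling to the array median ended the call of Yap1 (adjusted p = 0.11). Thbs1 measured 2.80 with normexp correction.

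Immediate early and AP-1 genes, which serum, growth factors and handling induce within minutes, rose in 13 of 22 cases with no fall in limma (median 0.66; 14 higher and 0 lower at an unadjusted p under 0.05). With normexp correction 8 rose and the median was 0.19. Fosl2, a Fos family subunit of AP-1, rose by 1.40 ± 0.11 (adjusted p = 4.1e-07; 0.58 with normexp correction), Dusp1, a MAP kinase phosphatase, by 1.31 ± 0.13 (adjusted p = 5.3e-06) and the antiproliferative Btg2 by 1.04 ± 0.059 (adjusted p = 2.2e-08). Zfp36, which destabilises cytokine messages, measured 1.76 ± 0.58 (adjusted p = 0.036), and leaving out any one of 5 untreated arrays raised that to between 0.056 and 0.1; with normexp correction it was 0.42. Egr1 measured 0.74 ± 0.29 and passed without sh4 replicate 1 (adjusted p = 0.0077), and Jund and Fosb measured 0.056 ± 0.081 and -0.045 ± 0.26. Annexins and S100 proteins, calcium-binding proteins of membranes and epithelia, rose in 10 of 22 cases and fell in 3 (1 with normexp correction). Anxa3 rose by 3.19 ± 0.13, Anxa1, a regulator of inflammation, by 2.34 ± 0.078 and S100a6 by 1.43 ± 0.10 (adjusted p = 1.4e-09, 2.5e-10 and 1.4e-07). S100g, an intestinal and uterine calcium buffer, was above background on no sh4 array and at least 1.91-fold lower (adjusted p of the fitted change = 2.6e-05; call lost with normexp correction, adjusted p = 0.091).

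Fibroblast markers, which feeder cells would carry, moved both ways beside these gene groups. Of 16 measured, 5 rose and 5 fell, and with normexp correction 0 rose and 5 fell. Summed over the list, the linear signal in units of each array's 75th percentile ran from 3.89 to 4.78 on sh4 arrays and from 5.94 to 6.62 on shCTR arrays, lower in sh4 with no overlap. The brightest members weigh most in that sum. Thy1, a surface glycoprotein of fibroblasts and neurons, fell by 1.71 (adjusted p = 2.9e-08). The collagen Col3a1 and the proteoglycans Dcn and Lum were well above background on no shCTR array, and Postn on no untreated array. Dcn was at least 2.43-fold higher in sh4 (adjusted p of the fitted change = 1.2e-07), a call that normexp correction ended (adjusted p = 0.74). Col3a1 was above background on 1 sh4 array and Lum on 2, and neither difference can be sized above that limit. Under normexp correction Col3a1 measured -0.068 (adjusted p = 0.8) and Lum -0.057 (adjusted p = 0.83), the opposite sign to the fit. The part of other cells in the rise of actin and matrix genes was not tested.

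Secreted signals and their receptors changed in most pathways examined. Wnt proteins are lipid-modified ligands that stabilise beta-catenin or act on polarity, and of 36 Wnt pathway genes 13 rose and 7 fell (median 0.066). The rises were led by ligands. Wnt4, which patterns kidney and gonad, stood at -1.97, -1.93, -1.65 and -1.79 in sh4 and -5.38, -5.59, -5.33 and -5.37 in shCTR, 12-fold apart with no overlap (adjusted p = 5.5e-11). Wnt7b, a ligand of placenta and lung, rose by 2.50 ± 0.091 (adjusted p = 4.6e-10). Its relative Wnt7a and the early embryonic ligand Wnt8a, each well above background on 3 shCTR arrays, rose by 2.45 ± 0.24 and 3.02 ± 0.33 (adjusted p = 3.6e-06 and 1.1e-05). Normexp values were 2.02 for Wnt4, 1.60 for Wnt7b, 0.66 for Wnt7a and 0.81 for Wnt8a. Wnt3, the ligand that starts the primitive streak, was above background on no shCTR array and at least 2.81-fold higher (adjusted p of the fitted change = 6.6e-07; call lost with normexp correction, adjusted p = 0.6). Wnt5a, Wnt5b and Wnt6 measured 0.35 ± 0.36, 0.34 ± 0.15 and -0.27 ± 0.13, and Wnt5b passed with the replicate block (adjusted p = 0.021).

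Fibroblast growth factors (FGFs) act through the ERK kinase cascade, whose feedback genes report its activity. In a list that joins such genes with FGF ligands and receptors, 10 of 22 rose, 1 fell and 11 did not pass. The fall was in an FGF receptor. Members of the Spry, Spred and Etv families were among both the rises and the genes that did not pass. Fgf5, a ligand of the epiblast after implantation, stood at -1.42, -1.72, -1.66 and -1.77 in sh4 and -4.12, -4.23, -4.25 and -4.42 in shCTR and rose 6.12-fold (change 2.61 ± 0.084, adjusted p = 1.7e-10). The feedback phosphatase Dusp4 rose by 1.94 ± 0.092 and the feedback inhibitor Spry1 by 1.10 ± 0.091 (adjusted p = 4.2e-09 and 7.6e-07). Dusp5 rose by 0.85 ± 0.15 but not with normexp correction (adjusted p = 0.7). Fgf4, the ligand that ES cells themselves secrete, measured -0.30 ± 0.47, and Fgf15 and Fgf8 measured -0.16 ± 0.30 and -0.24 ± 0.16. Fgf4 passed as lower when sh4 replicate 4 of the retinoic acid group left the shared estimate of spread (adjusted p = 0.03). It also did so in a fit of the 8 untreated arrays alone (adjusted p = 0.04). Fgf8 passed as lower with slide as a block (adjusted p = 0.0095), and in the 8 untreated arrays with the replicate block (adjusted p = 0.044).

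In the Nodal, activin and TGF-beta list 9 of 24 rose and 5 fell, with 5 rises under normexp correction. The activin and inhibin beta subunits went apart: Inhbb fell by 2.25 (adjusted p = 3.9e-05), while Inhba was above background on no shCTR array and at least 1.47-fold higher (adjusted p of the fitted change = 2.7e-07), and with normexp correction it measured -0.012 (adjusted p = 0.97). Inhbb stood at -0.58, -0.44, -0.072 and -0.22 in sh4 and 1.71, 1.93, 2.02 and 2.02 in shCTR, without overlap and with the larger spread in sh4. The ligand Tgfb2 measured 1.82 ± 0.14 (adjusted p = 3.3e-07) and did not pass with normexp correction (adjusted p = 0.14). Nodal and its coreceptor Tdgf1 measured -0.0027 ± 0.086 and -0.16 ± 0.30. Of 21 genes of bone morphogenetic protein (BMP) signalling, 7 rose and 4 fell, with 2 falls under normexp correction. Bmp8b, a ligand of the extra-embryonic ectoderm, rose by 2.15 ± 0.085 (adjusted p = 9.8e-10), and the BMP targets Id2 and Id1 by 1.69 ± 0.14 and 0.88 ± 0.13 (adjusted p = 7e-07 and 0.00021). Smad9 fell by 1.12 (adjusted p = 0.00023; -0.42 with normexp correction), and the receptors Bmpr1a and Bmpr1b measured 0.19 ± 0.17 and -0.033 ± 0.14.

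Cell contact signals changed as well. Of 19 ephrins and Eph receptors 7 rose and 2 fell. The receptor Epha1, found on epithelia, stood at 1.40, 1.44, 1.39 and 1.63 in sh4 and -1.67, -1.63, -1.21 and -1.34 in shCTR, 7.63-fold apart (adjusted p = 8e-10). Among ligands, Efnb2 rose by 1.96 ± 0.086 and Efna5 by 1.41 ± 0.074 (adjusted p = 2.1e-09 and 1.1e-08), while Efna1, Efna2 and Efna3 measured 0.0025 ± 0.17, -0.091 ± 0.11 and 0.15 ± 0.22. For Efnb2 the mean over its kept probes was 1.28. In the Notch pathway 8 of 20 rose and 6 fell. The ligand Dll1 rose by 0.83 ± 0.14 (adjusted p = 0.00043), the receptor Notch4 fell by 0.81 (adjusted p = 1.7e-05), and Lfng, a glycosyltransferase that tunes Notch, rose by 1.22 ± 0.13 but not with normexp correction (adjusted p = 0.26). Notch1, at 0.80 ± 0.39, and the target Hes1, at -0.74 ± 0.28, passed with the replicate block (adjusted p = 0.0034 and 0.0029).

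The cytokine LIF holds ES cells in self-renewal through the kinase Jak1 and the factor Stat3, and in its list 4 of 15 genes rose and 4 fell. The count of falls was 2 with normexp correction, and median scaling gave 2 rises. Klf4, a direct Stat3 target, fell by 1.05 (adjusted p = 9.7e-08), from 3.39, 3.55, 3.42 and 3.32 in shCTR to 2.45, 2.39, 2.35 and 2.27 in sh4. Junb rose by 0.77 ± 0.12 (adjusted p = 0.00022; 0.40 with normexp correction). Lif itself measured 0.90 ± 0.17 (adjusted p = 0.00093) and was not called with normexp correction (adjusted p = 0.81). Tfcp2l1, another Stat3 target, fell by 0.59 (adjusted p = 0.018) with overlapping groups, and the call was lost without sh4 replicate 1 or without shCTR replicate 1 or 2 (adjusted p between 0.052 and 0.057). Jak1 measured -0.0025 ± 0.079 and Stat3 -0.21 ± 0.10. Stat3 passed as lower with slide as a block (adjusted p = 0.038) and in the 8 untreated arrays with the replicate block (adjusted p = 0.047). Over all 15 arrays it did not pass with the replicate block (adjusted p = 0.071).

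**Figure D2:**
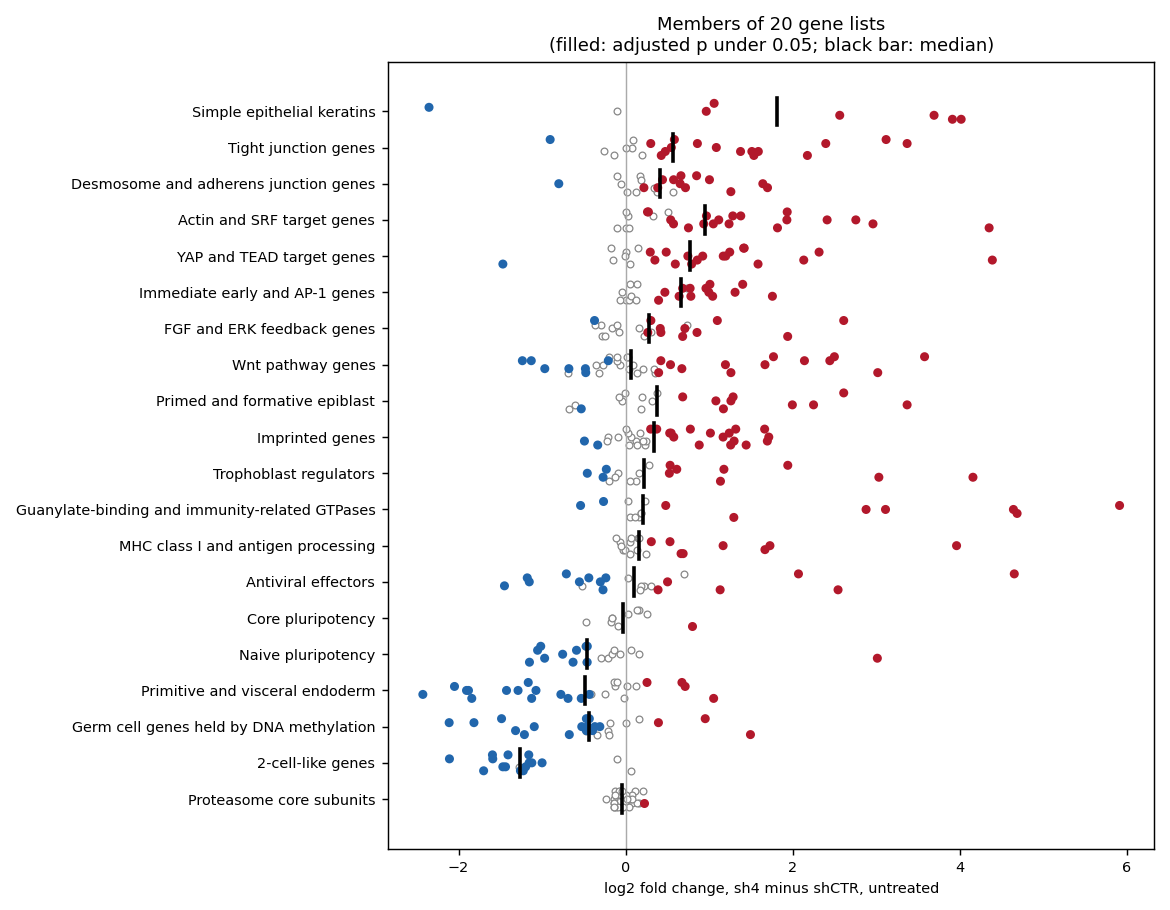
Log2 change (x axis, sh4 minus shCTR, untreated) of each measured member of 20 gene lists (y axis). Filled points passed an adjusted p of 0.05, red higher and blue lower, open points did not, and the black bar is the median of all measured members; genes below background in one group, such as Gbp3, are drawn at their fitted change. Keratins have the highest median (1.81) of the lists shown, 2-cell-like genes the lowest (-1.26), and proteasome subunits lie near 0.

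Part of the interferon-induced GTPases rose strongly. Guanylate-binding proteins (Gbps) and immunity-related GTPases attack the vacuoles of intracellular pathogens, and their genes are classic interferon targets. In the list 7 of 16 rose and 2 fell (median 0.21). Gbp2 stood at -1.26, -1.12, -0.96 and -0.92 in sh4 and -5.47, -5.98, -5.53 and -6.02 in shCTR, 25.8-fold apart (change 4.69 ± 0.13, adjusted p = 3.2e-11). Gbp2b stood at -2.24, -2.14, -1.95 and -1.74 in sh4 and -7.09, -5.64, -7.27 and -6.64 in shCTR (change 4.64 ± 0.27, adjusted p = 2.4e-08). Gbp3 was above background on no shCTR array and all 4 sh4 arrays and at least 31.5-fold higher (adjusted p of the fitted change = 2.6e-09). The groups did not overlap for Gbp2, Gbp2b or Gbp3. The Irgm1 gene rose by 3.11 ± 0.17 (adjusted p = 1.7e-08), and normexp values were 3.06 for Gbp2, 2.01 for Gbp3, 2.38 for Gbp2b and 1.46 for Irgm1.

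By position, Gbp2, Gbp2b and Gbp3 lie in 1 cluster on chromosome 3, and so does Gbp7, chosen here after its value was seen, which was above background on no shCTR and 3 sh4 arrays and at least 1.77-fold higher (adjusted p of the fitted change = 2.7e-08; 0.73 with normexp correction). Gbp5, of the same cluster, measured 0.16 ± 0.58. In the cluster on chromosome 5, Gbp6 and Gbp10 measured 0.19 ± 0.37 and 0.056 ± 0.25 and did not pass. Gbp9 and Gbp4 of that cluster, also chosen after their values were seen, measured 0.48 ± 0.15 and -0.26 ± 0.091 (adjusted p = 0.03 and 0.044). Both calls were lost with normexp correction (adjusted p = 0.58 and 0.14), in the 8 untreated arrays alone (0.073 and 0.12) and when single arrays were left out (up to 0.094 and 0.13). Gbps are near-identical in stretches, so signal of one may include another, Gbp2 and Gbp2b above all. Irgm2, next in the family to Irgm1 and likewise chosen after its value was seen, fell by 0.54 (adjusted p = 0.00021).

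Promoters of the chromosome 3 Gbps and of Irgm1 are shown, chosen since they carry the motif of interferon-regulated genes. The interferon-stimulated response element was searched as 2 copies of GAAA with any 2 bases between them, and the gamma-activated site as TTCNNNGAA, on both strands. The first was found in 3.44% and the second in 8.3% of all 32851 promoters. The response element was in 10 of 12 promoters of the 11 guanylate-binding and immunity-related GTPases matched, Irgm2 among them, and in 11 of 19 of the antiviral effectors, Oasl2 not among them. No promoter of Gbp4, Gbp6, Gbp9 or Gbp10 was at hand, so these chromosome 5 genes were not searched. Sequences are from RefSeq, build GRCm38.p6, upstream of the start in the direction of the gene, with matches in capitals (TTTC pairs are the response element on the other strand). Gbp2 lies at chr3:142620584-142620633, Gbp2b at chr3:142594690-142594739, Gbp3 at chr3:142559979-142560034, Gbp5 at chr3:142496684-142496910 and Gbp7 at chr3:142530210-142530312, all on the plus strand, and Irgm1 at chr11:48871421-48871470 on the minus strand.
Gbp2: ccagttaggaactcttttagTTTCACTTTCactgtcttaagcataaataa
Gbp2b: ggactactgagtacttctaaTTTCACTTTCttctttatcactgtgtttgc
Gbp3: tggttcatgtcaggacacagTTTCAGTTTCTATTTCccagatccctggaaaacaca
Gbp7: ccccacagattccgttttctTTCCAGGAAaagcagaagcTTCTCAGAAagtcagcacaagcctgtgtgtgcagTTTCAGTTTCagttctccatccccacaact
Gbp5: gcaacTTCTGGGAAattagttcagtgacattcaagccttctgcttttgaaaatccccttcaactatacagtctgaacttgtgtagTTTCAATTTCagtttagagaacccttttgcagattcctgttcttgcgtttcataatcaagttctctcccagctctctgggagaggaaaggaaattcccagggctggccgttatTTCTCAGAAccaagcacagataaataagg
Irgm1: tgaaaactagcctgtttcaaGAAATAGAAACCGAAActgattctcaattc
Each of the 6 holds the response element at least 1 time, which the choice of promoters to show fixed in advance. Gbp5, which did not pass, holds both motifs, as Gbp7 does. The table lists a second start for Gbp3, whose promoter holds neither motif upstream of the start and is not shown.

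Antigen processing rose in part. Of 20 genes of MHC class I presentation, 8 rose and none fell in limma (10 higher and 0 lower at an unadjusted p under 0.05), and the classical heavy chains H2-K1 and H2-D1 measured 0.15 ± 0.061 and -0.072 ± 0.061. H2-K1 passed without shCTR replicate 1 (adjusted p = 0.027). Psmb8, an interferon-induced catalytic subunit of the immunoproteasome, stood at -2.51, -2.43, -2.12 and -2.33 in sh4 and -6.63, -6.24, -5.92 and -6.45 in shCTR, 15.6-fold apart with no overlap (adjusted p = 2.5e-10). Tap1 and Tap2, which form the peptide transporter, rose by 1.67 ± 0.11 and 1.17 ± 0.096 (adjusted p = 1.3e-07 and 6.8e-07). Erap1, which trims peptides, passed in the fit (adjusted p = 6.6e-05) while above background on 1 of the 8 arrays, so its change cannot be sized, and with normexp correction it measured -0.0067 (adjusted p = 0.99). Normexp values were 2.05 for Psmb8 and 0.84 for Tap1. H2-M2, a nonclassical class I gene, was above background on no shCTR array and at least 16.2-fold higher (adjusted p of the fitted change = 1.4e-09; 1.05 with normexp correction).

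Antiviral effectors moved in both directions: of 22, 6 rose and 9 fell. Oasl2 was above background on no shCTR array and at least 15.2-fold higher in sh4 (adjusted p of the fitted change = 1.3e-08; 1.06 with normexp correction), and the ubiquitin-like Isg15 rose by 2.54 ± 0.16 (adjusted p = 5.6e-08). Oas2, a sensor enzyme of the same family as Oasl2, fell by 1.45 (adjusted p = 2.6e-08). It stood at -0.91, -0.71, -0.87 and -0.84 in sh4 and 0.48, 0.83, 0.63 and 0.53 in shCTR, with no overlap. The RNA sensor Ifih1 was at least 2.04-fold higher (adjusted p of the fitted change = 0.00028), a call that normexp correction ended (adjusted p = 0.72). Mx2, dim in both groups, and Isg20 measured 0.030 ± 0.26 and 0.19 ± 0.11. Of 19 receptors, STATs and IRFs 5 rose and 3 fell, with 3 rises under normexp correction and 3 with median scaling. Irf1, an activator of interferon-induced genes, rose by 0.98 ± 0.088 (adjusted p = 1.6e-06), and Irf5 fell by 1.45 (adjusted p = 4.6e-06). Irf2, above background on no shCTR array, was at least 1.44-fold higher (adjusted p of the fitted change = 5e-07), and with normexp correction it measured -0.032 (adjusted p = 0.92). The receptor chains Ifnar1 and Ifnar2 measured -0.12 ± 0.079 and -0.24 ± 0.11; the latter passed with the replicate block (adjusted p = 0.017).

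Among chemokines and interleukins 9 of 26 rose and 6 fell, with 5 rises under normexp correction and 3 falls with median scaling. Csf1, the growth factor of macrophages and of the placenta, stood at -2.51, -2.45, -2.36 and -2.07 in sh4 and -6.54, -5.99, -5.93 and -5.92 in shCTR, 13.5-fold apart (adjusted p = 5.4e-10). Cxcl10, an interferon-induced chemokine, rose by 2.98 ± 0.12, the alarmin Il33 by 2.62 ± 0.16 and Cxcl12, which guides stem cells, by 1.97 ± 0.13 (adjusted p = 1.3e-09, 3.6e-08 and 1.2e-07). With normexp correction these 4 measured 1.95, 1.13, 0.83 and 1.00 in that order. Ccl5, Cxcl11 and Cxcl5 measured 0.10 ± 0.15, 0.48 ± 0.63 and 0.30 ± 0.16, and Cxcl5 passed without shCTR replicate 1 (adjusted p = 0.035).

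Of 10 core pluripotency genes, which define ES cells, 1 rose and none fell in limma (at an unadjusted p under 0.05, 3 were higher and 0 lower). All were well above background on all 8 arrays, and their summed linear signal ran from 118 to 128 in sh4 and from 113 to 131 in shCTR, in units of the 75th percentile. Pou5f1 (Oct4) stood at 4.07, 4.42, 4.45 and 4.43 in sh4 and 3.96, 4.79, 4.74 and 4.55 in shCTR, with overlap. Sox2 measured -0.17 ± 0.11, Sall4 -0.090 ± 0.10, Utf1 0.26 ± 0.097, Rif1 0.16 ± 0.083, Zfp281 0.14 ± 0.056 and Rex2 0.028 ± 0.20. Lin28a, an RNA-binding protein that blocks let-7, was the gene that rose (0.79 ± 0.13, adjusted p = 0.0003). Nanog, at -0.47 ± 0.24, and the naive factor Esrrb, at -0.48 ± 0.43, did not overlap between groups. Both passed as lower in a fit of the 8 untreated arrays alone (adjusted p = 0.0035 and 0.003) and when sh4 replicate 4 of the retinoic acid group was left out of the shared spread (adjusted p = 0.0015 and 0.0089). Dppa5a, another ES cell gene, measured 0.069 ± 0.17. Leaving out 1 array let 2 more genes pass as higher: Utf1 without sh4 replicate 1 (adjusted p = 0.032) and Zfp281 without shCTR replicate 2 (adjusted p = 0.036).

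Genes of the naive state, which ES cells share with the early epiblast, were mostly lower. Of 20 such genes 10 fell and 1 rose (median -0.47). Tbx3, a T-box factor of the naive network, fell by 1.15 (adjusted p = 2.9e-08), from 4.49, 4.80, 4.59 and 4.62 in shCTR to 3.41, 3.53, 3.50 and 3.45 in sh4, and Prdm14, a repressor of FGF signalling, fell by 1.02 (adjusted p = 0.022; 0.05 without sh4 replicate 3 and 0.051 without shCTR replicate 3). The zinc finger gene Zfp42 fell by 0.47 (adjusted p = 0.035), with no overlap between groups. That call was lost when any 1 untreated array was left out, and stood in the 8 untreated arrays alone (adjusted p = 0.0012). The exception was Dppa3, the gene of Stella, which shields methylation in the zygote. It stood at 0.89, 0.92, 0.71 and 0.68 in sh4 and -2.23, -2.10, -2.29 and -2.24 in shCTR and rose 8.08-fold (change 3.02 ± 0.080, adjusted p = 3.2e-11). Klf2 and Nr0b1 measured -0.063 ± 0.33 and -0.21 ± 0.30. In the primed and formative list 9 of 19 rose and 1 fell (median 0.38). Beside Fgf5 and Cldn6, described above, Grhl2, an activator of epithelial genes, rose by 2.25 ± 0.10 and the POU factor Pou3f1 by 2.00 ± 0.097 (adjusted p = 3.1e-09 and 5.3e-09). Sox3 and Zic2 measured 0.20 ± 0.074 and -0.60 ± 0.28; Sox3 passed without sh4 replicate 2 or shCTR replicate 1 (adjusted p = 0.048 and 0.049) and Zic2 without sh4 replicate 4 (adjusted p = 0.026).

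Trophoblast genes rose in part; trophoblast is the outer lineage of the blastocyst that ES cells do not normally enter. Among its regulators 8 of 18 rose and 3 fell (1 fall with normexp correction, 0 with median scaling), and their summed signal was 57.4 to 66.9 in sh4 against 35.2 to 44.2 in shCTR. Cdx2, the factor that sets trophectoderm, stood at -0.56, -0.60, -0.43 and -0.062 in sh4 and -4.92, -4.38, -4.40 and -4.59 in shCTR, 17.9-fold apart with no overlap (adjusted p = 2.7e-10). Hand1 rose by 3.03 ± 0.11, Gata3 by 1.94 ± 0.10 and Gata2 by 1.18 ± 0.073, all factors of trophoblast cells (adjusted p = 5.6e-10, 8.5e-09 and 4.7e-08). The trophectoderm factors Tead4 and Tfap2a and the spongiotrophoblast factor Ascl2 measured 0.054 ± 0.12, -0.12 ± 0.084 and 0.12 ± 0.096. Of 19 placental products 8 rose and 1 fell; without sh4 replicate 3 or shCTR replicate 3 the count of rises was 5, with median scaling it was 5 and with normexp correction 4. The X-linked Plac1 rose by 2.99 ± 0.081, the protease Pappa2 by 1.76 ± 0.092 and the coactivator Cited1 by 1.35 ± 0.075 (adjusted p = 3.4e-11, 1.1e-08 and 1.8e-08). The lactogens Prl3d1 and Prl3b1 of giant and labyrinth trophoblast measured 0.013 ± 0.44 and 0.010 ± 0.71. Normexp values were 1.68 for Hand1, 1.27 for Plac1 and 0.42 for Pappa2.

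Primitive endoderm is the other extra-embryonic lineage, and more of its genes fell than rose. Of 26 primitive and visceral endoderm genes 14 fell and 4 rose (median -0.48), with 2 rises under normexp correction. Their summed signal overlapped, at 70.3 to 80.7 in sh4 and 74.8 to 84.6 in shCTR. The brightest members weigh most in that linear sum, so falls of dim members would hardly show in it. The receptor Pdgfra stood at -6.32, -6.35, -6.34 and -6.25 in sh4 and -3.87, -3.83, -3.98 and -3.86 in shCTR and kept 18.6% of the control level (change -2.43 ± 0.054, adjusted p = 1.4e-11). Gata6, which starts this lineage, stood at -3.66, -3.71, -3.68 and -3.64 in sh4 and -1.84, -1.72, -1.83 and -1.68 in shCTR, also without overlap (change -1.91 ± 0.076, adjusted p = 1e-09). Sox7 and Sox17, which act after Gata6, fell by 2.05 for Sox7, and Sox17 fell by 1.88 (adjusted p = 1.1e-10 and 2.9e-08). The later marker Dab2 measured 0.018 ± 0.10, and the basement membrane collagen Col4a2, at -0.25 ± 0.13, passed with the replicate block (adjusted p = 0.022). Normexp values were -1.05 for Pdgfra and -1.01 for Sox7. Mesoderm and primitive streak genes fell in 6 of 18 cases and rose in 2, with Cdx1 falling by 1.02 and the organiser gene Gsc by 0.82 (adjusted p = 6.7e-05 and 0.0066). Without both arrays rated for evaluation Gsc lost the call (adjusted p = 0.051). Brachyury, T, measured 0.38 ± 0.27 and rose without sh4 replicate 3 (adjusted p = 0.013). Of 23 neural genes 4 rose and 5 fell (17.4% and 21.7%, against 14.4% and 14.1% of all genes). Pax6 rose by 1.31 ± 0.13 and the neuronal tubulin Tubb3 fell by 0.96 (adjusted p = 2.9e-06 and 0.00047). With normexp correction Pax6 measured 0.64.

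A few ES cells pass through a 2-cell-like state, in which they express genes of the 2-cell embryo. Of 17 such genes 14 fell and none rose in limma (median -1.26; 15 lower and 0 higher at an unadjusted p under 0.05), against a background of 14.1% of all genes lower. Tdpoz3, a speckle-type POZ protein, stood at -6.99, -6.70, -6.30 and -6.68 in sh4 and -4.51, -4.65, -4.45 and -4.62 in shCTR, without overlap (change -2.11 ± 0.12, adjusted p = 1.8e-08). Tcstv3 fell by 1.70, Tdpoz4 by 1.60 and Pramel7, which lowers DNA methylation in ES cells, by 1.59 (adjusted p = 2.9e-08, 2.5e-07 and 7.1e-08). Tdpoz and Tcstv genes are families of near copies, so their probes may read several of them. Eif1a and Zfp352 measured 0.068 ± 0.084 and -0.098 ± 0.14. Normexp values were -0.78 for Tdpoz3 and -0.57 for Tdpoz4.

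Germ cell genes of a kind that DNA methylation can hold silent fell in 15 of 25 cases and rose in 3. Most were not silent here, as 23 of the 25 were well above background on all 8 untreated arrays. Stra8, which opens meiosis, fell by 2.11 (adjusted p = 0.00014), from 4.77, 4.98, 4.88 and 5.18 in shCTR to 2.87, 3.01, 2.34 and 3.13 in sh4. Piwil4, a piRNA-binding protein, fell by 1.82 and Hormad1, of the meiotic chromosome axis, by 1.49 (adjusted p = 3.1e-07 and 2e-07). Tdrd5, a Tudor protein of the piRNA pathway, rose by 1.50 ± 0.074 (adjusted p = 6.4e-09). Sycp1 measured -0.20 ± 0.086 and passed without sh4 replicate 1 (adjusted p = 0.044), Sycp2, at -0.47 ± 0.18, passed with the replicate block (adjusted p = 0.03), and Tex19.1 measured -0.18 ± 0.11. Piwil4 measured -0.61 with normexp correction. In the X-linked Rhox homeobox cluster, 5 of 12 genes rose and 3 fell, with 3 rises under normexp correction. Rhox6 and Rhox9 rose by 1.77 ± 0.091 and 1.49 ± 0.090, while Rhox10 fell by 1.32 (adjusted p = 8.5e-09, 3.8e-08 and 4.2e-09), and paralogues of the cluster may share signal.

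Imprinted genes, which are expressed from 1 parental copy, rose in 17 of 32 cases and fell in 2 (median 0.34). Igf2, the fetal growth factor, stood at -4.58, -4.69, -5.04 and -4.80 in sh4 and -5.94, -6.39, -6.92 and -6.72 in shCTR (change 1.71 ± 0.17, adjusted p = 3.8e-06). Peg3 rose by 1.70 ± 0.075, and Peg10 and its neighbour Sgce, which share a promoter region, by 1.67 ± 0.13 and 1.44 ± 0.18 (adjusted p = 2.5e-09, 6.1e-07 and 2.9e-05). The maternally expressed growth inhibitors Cdkn1c and Phlda2 measured 0.068 ± 0.083 and -0.21 ± 0.12, and the noncoding Kcnq1ot1 of the same domain 0.24 ± 0.19. Normexp values were 0.40 for Igf2, 1.10 for Peg10 and 0.66 for Peg3.

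Beyond the lists, the 15 largest rises among genes above background on all 8 arrays included a transporter, a receptor and the lysophospholipase Enpp2, not described so far. Enpp2, or autotaxin, which makes lysophosphatidic acid outside the cell, stood at -1.31, -1.09, -1.17 and -1.12 in sh4 and -5.22, -4.94, -4.70 and -4.77 in shCTR (change 3.74 ± 0.12, adjusted p = 1.4e-10). The vitamin C transporter Slc23a1 rose by 3.58 ± 0.14 and the leukotriene receptor Cysltr1 by 3.54 ± 0.15 (adjusted p = 1.1e-09 and 1.4e-09). None of these overlapped between groups, and with normexp correction Slc23a1 measured 2.07 and Cysltr1 1.63.

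The 15 largest falls among such genes were smaller. Nostrin, which traffics endothelial nitric oxide synthase, stood at -7.06, -6.77, -7.10 and -6.77 in sh4 and -3.79, -3.91, -3.76 and -3.77 in shCTR and kept 11.5% of the control level (change -3.12 ± 0.096, adjusted p = 1.1e-10). Hal, the histidine-degrading enzyme, stood at -2.72, -2.64, -2.75 and -2.71 in sh4 and -0.19, -0.10, -0.096 and -0.13 in shCTR and kept 16.8% (change -2.57 ± 0.058, adjusted p = 1.4e-11). Rac2, a GTPase of blood cells, stood at -4.36, -4.37, -4.54 and -4.57 in sh4 and -1.95, -1.93, -1.98 and -1.96 in shCTR and kept 17.6% (adjusted p = 5.5e-11). The groups stood well apart for these. Genes with a broader spread were Myo1f, a myosin of leukocytes (-2.76 ± 0.37), and Nkx6-3, a homeobox factor of the gut (-2.60 ± 0.31), with adjusted p of 7.1e-05 and 2.4e-05. The cadherin Cdh22, the granule proteoglycan Srgn and the mitochondrial uncoupler Ucp1 fell by 2.64, 2.48 and 2.40. The amino acid transporter Slc38a8, Ctag2l2 and Ccdc38 fell by 2.32, 2.29 and 2.30, with adjusted p of 2.2e-08, 2.8e-11 and 1.7e-07. Capn9, a protease of the stomach, fell by 2.40 by its brightest probe (adjusted p = 1.6e-09), and the mean over its probes did not pass (-0.71, adjusted p = 0.065). Normexp values were -1.22 for Nostrin, -1.13 for Ccdc38 and -1.44 for Ucp1.

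Some genes crossed the detection limit. Of the 25137 genes tested, 53 were above background on all 4 sh4 arrays and on no shCTR array, and 48 showed the reverse. Of these 51 and 46 passed, which the choice by detection makes likely by itself, so the passing adds no support. Beside Gbp3, H2-M2 and Oasl2, the lower bounds were highest for the chloride channel protein Clic5 (at least 7.94-fold), the matrix protein Ccdc80 (at least 5.15-fold), the noncoding Morrbid (at least 5.09-fold) and Macc1, a regulator of the Met receptor (at least 4.75-fold). Cyp1b1, which oxidises steroids and retinoids, was at least 3.93-fold higher, the zinc finger factor Hivep2 at least 3.79-fold and the protease inhibitor Serpinb9g at least 3.26-fold. In the fitted test these 7 genes, picked among those that passed, had adjusted p between 2.5e-10 and 6.8e-07. Clic5 kept its call with normexp correction (0.59, adjusted p = 0.008) and the other 6 lost theirs (Ccdc80 0.072, Morrbid 0.064, Macc1 0.1, Cyp1b1 0.38, Hivep2 0.3 and Serpinb9g 0.54).

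Going down, Rufy4, an autophagy protein of dendritic cells, was at least 4.89-fold lower, the ferritin receptor Timd2 at least 4.14-fold, Baalc at least 3.46-fold and the adenosine receptor Adora1 at least 2.65-fold. The olfactory receptor genes Olfr118, Olfr121 and Olfr850 were at least 2.65-fold, 2.56-fold and 2.45-fold lower; receptors of this family share sequence, so their probes may read relatives. C2cd6, Hoxa11, a Hox factor of limb and uterus, and Islr completed the 10, at least 2.3-fold, 2.22-fold and 2.16-fold lower. All 10 passed in the fit, as the rule that picked them required. With normexp correction Rufy4, Timd2, Baalc and Adora1 measured -0.57, -0.63, -0.54 and -0.44 and Olfr118 and Olfr121 -0.46 and -0.40, while C2cd6, Hoxa11, Islr and Olfr850 lost the call (adjusted p = 0.063, 0.096, 0.13 and 0.17).

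Matrix, transport and metabolic genes changed in smaller numbers. Of 21 integrins 7 rose and 4 fell, and the count of rises was 4 without shCTR replicate 3, 4 with normexp correction and 4 with median scaling; the replicate block gave 5 rises and 6 falls. Itga8 rose by 1.55 ± 0.084 and Itga9, Itgb3 and Itgb7 fell by 1.52, 1.01 and 0.93 (adjusted p = 1.5e-08, 7.4e-08, 1.7e-06 and 2.4e-05). Matrix proteases and inhibitors rose in 6 of 23 cases, among them Adamts1 (1.66 ± 0.088; 1.00 with normexp correction) and the urokinase receptor Plaur (1.55 ± 0.064), with adjusted p of 1.3e-08 and 1.3e-09. Of 10 aquaporins 5 fell and 1 rose. The water channel Aqp8 fell by 2.74, Aqp3, which also carries glycerol, by 1.35 and the lens channel Mip by 0.95 (adjusted p = 5.3e-07, 2e-06 and 4e-05). Mip measured -0.54 with normexp correction. Apolipoproteins and lipoprotein receptors divided, 4 of 18 up and 3 down (22.2% and 16.7%, against 14.4% and 14.1% of all genes). The endocytic receptor Lrp2 rose by 1.05 ± 0.13 and Apom fell by 1.08 (adjusted p = 2.4e-05 and 7.7e-06).

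Oxidative stress genes rose in 5 of 17 cases and fell in 2. The glutathione synthesis subunits Gclc and Gclm rose by 0.84 ± 0.098 and 0.60 ± 0.10 and thioredoxin reductase Txnrd1 by 0.63 ± 0.065, while the aldo-keto reductase Akr1b8 fell by 0.94 (adjusted p = 1.7e-05, 0.00046, 5.9e-06 and 7.6e-07). Mouse ES cells rely on threonine catabolism for one-carbon units, and of 15 genes around it 2 rose and 5 fell. Threonine dehydrogenase, Tdh, measured -0.21 ± 0.38, glycine decarboxylase, Gldc, rose by 0.50 ± 0.075, and the serine pathway enzymes Shmt2 and Psph fell by 0.76 and 0.70 (adjusted p = 0.00016, 9.2e-06 and 9e-07). Of 23 cyclins, kinases and their inhibitors 3 rose and 6 fell. Ccnd2, a cyclin that starts the cycle, fell by 1.57 (adjusted p = 1.7e-06), and the mitotic cyclins Ccnb1 and Ccnb2 measured 0.046 ± 0.12 and -0.15 ± 0.067, the latter passing without sh4 replicate 3 (adjusted p = 0.04). Constitutive proteasome subunits, in contrast to Psmb8, moved least of the lists: 1 of 31 passed and the changes lay between -0.23 and 0.22. The 1 that passed, Psma7 at 0.22 ± 0.062, did not pass without sh4 replicate 3 or shCTR replicate 1 (adjusted p = 0.052 and 0.051).

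By chromosome, rises and falls were uneven. On the X chromosome 237 of 1058 genes tested were higher (22.4%) and 115 lower (10.9%), with a median change of 0.086. That ratio of 2.06 rises per fall was the highest of the 20 chromosomes compared (the autosomes and X), ahead of chromosome 1 (1.5) and chromosome 3 (1.45). Chromosome 11 had the lowest ratio (0.687), with 226 rises and 329 falls, followed by chromosome 7 (0.722) and chromosome 9 (0.752). These shares are a description without a test, since genes of a chromosome are not independent samples, and neighbouring copies of a gene family can move a share. Positions are those the array files give on build mm9.

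**Figure D3:**
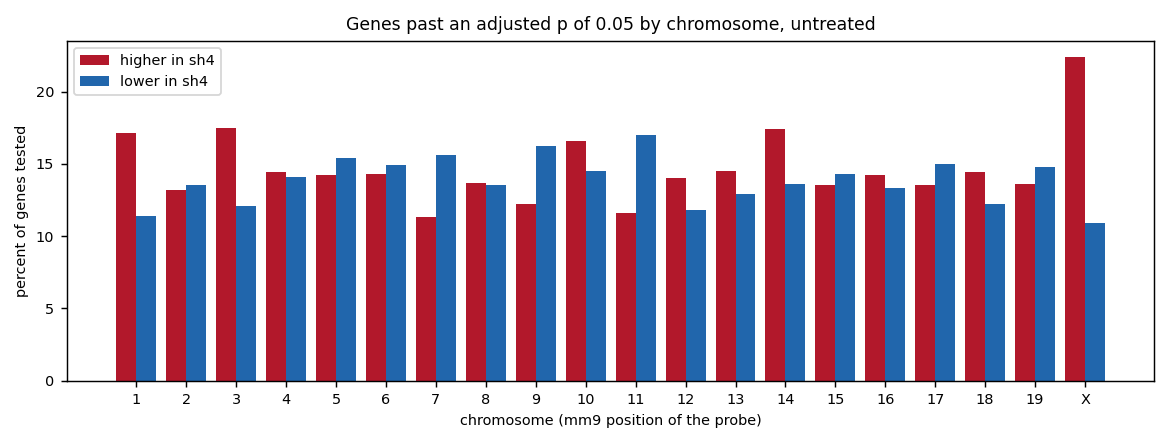
Percent of genes tested (y axis) on each chromosome (x axis, mm9 position of the probe) that were higher (red) or lower (blue) in sh4 at an adjusted p under 0.05. On X the red bar (22.4%) stands above the blue one (10.9%), and on chromosome 11 the order is the reverse (11.6% and 17%).

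The same hairpins after 72 hours in 1 µM retinoic acid, which drives ES cells to differentiate, show which untreated effects were also seen there. That comparison uses 3 sh4 and 4 shCTR arrays and shares none of the 8 untreated ones. In retinoic acid 5311 genes changed between hairpins (21.1%), and the difference between both hairpin effects passed for 5122 genes (20.4%). Of the untreated calls, 2305 were called in the same direction in retinoic acid, which is 32.2% of the untreated and 43.4% of the retinoic acid calls, and 715 were called in the opposite direction. A difference between treatments was called for 50.9% of the untreated calls, for which the untreated arrays enter both sides. Rises of at least 2-fold had a median of 1.39 untreated and 0.30 in retinoic acid, and 307 of the 780 were called higher there and 77 lower. Falls of at least 2-fold had medians of -1.32 and -0.60, and 492 of the 859 were called lower and 32 higher. Choosing genes for a large untreated change raises their untreated median by itself.

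By gene, Krt8 and Krt18, raised in untreated cells, measured 0 ± 0.11 and -0.061 ± 0.14 in retinoic acid, and Csf1 -0.0093 ± 0.15. Acta1, Thbs1, Wnt4, Gbp2 and Psmb8 measured 0.74 ± 0.21, 0.34 ± 0.13, 0.58 ± 0.11, 1.04 ± 0.14 and 1.16 ± 0.14 there, each smaller than untreated (adjusted p of the difference between 8.5e-09 and 1.8e-06). Genes that turned were Enpp2 (-1.60 ± 0.13), Slc23a1 (-1.93 ± 0.16) and Cdx2 (-0.55 ± 0.15), which fell in sh4 under retinoic acid (adjusted p = 1.5e-06, 1.6e-06 and 0.021). Of the largest falls, Nostrin, Aqp8 and Srgn were lower in both settings, at -3.07 ± 0.10, -3.45 ± 0.24 and -3.36 ± 0.16 in retinoic acid, and Hal, Rac2 and Pdgfra fell by less there (-1.02 ± 0.062, -0.51 ± 0.078 and -1.58 ± 0.059; adjusted p of the difference = 5.4e-08, 4.2e-08 and 6.3e-06). Nkx6-3 and Cdh22 measured 0.70 ± 0.34 and 0.18 ± 0.19 in retinoic acid and did not pass there. Among the lists, 2-cell-like genes fell in both settings, 13 of 17 in retinoic acid with none higher (0 at an unadjusted p under 0.05). Endoderm genes fell in 25 of 26 cases there. Actin and SRF targets rose in 5 of 26 cases and fell in 1. Of all genes tested, 21.1% were called there in either direction, so the actin count is close to the share of all genes.

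**Figure D4:**
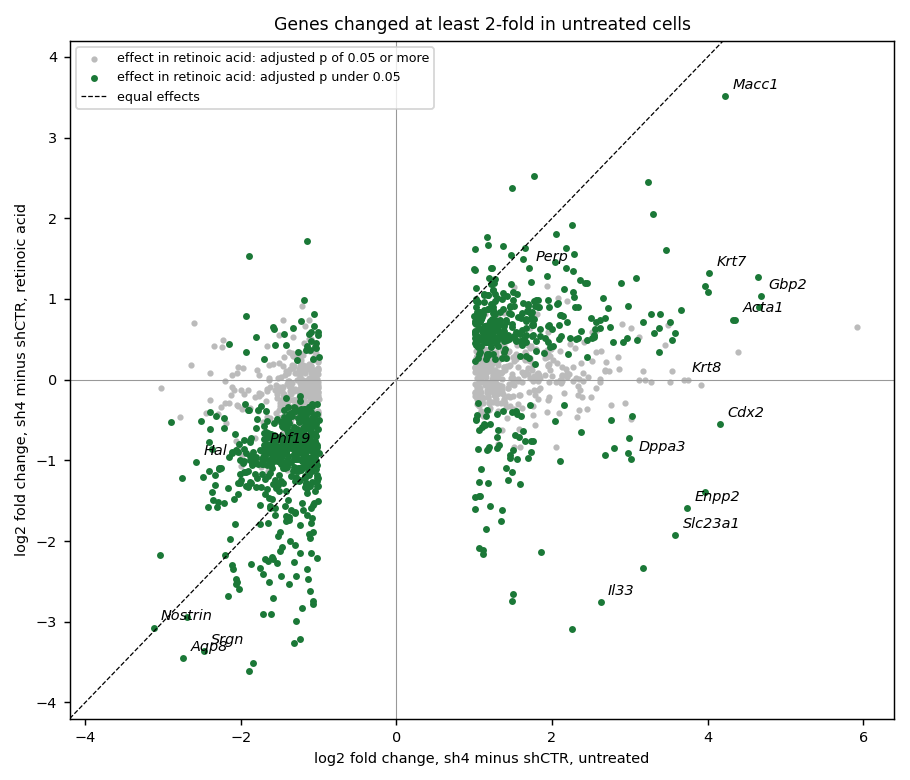
Hairpin effect (log2, sh4 minus shCTR) untreated (x axis) and in retinoic acid (y axis) for genes changed at least 2-fold in untreated cells, which leaves no point between -1 and 1 on the x axis. Green points passed in retinoic acid, grey points did not, and the dashed line marks equal effects; genes below background are drawn at their fitted change. Nostrin lies near the line (-3.12 and -3.07), Krt8 near 0 on the y axis, and Slc23a1, Enpp2 and Il33 below 0.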

How the data were processed

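Total RNA of 15 samples was measured on 1-colour Agilent mouse arrays. The deposited scanner files hold an intensity per spot that Feature Extraction 10.7.3.1 had background-subtracted, per the file headers. The series table holds the authors' log2 values, which share 1 distribution between arrays; their steps are not given in the sources used here, and they served as an alternative.

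Control spots and non-uniform or outlier spots were left out. The log2 intensity of each spot was set relative to the 75th percentile of its array. Probes stayed in when 3 or more arrays of any group were well above background, and each gene took its kept probe with the highest mean. In all 25137 genes were fitted with limma 3.58.1 (R 4.3.3) as 4 groups over 15 arrays, so the 7 retinoic acid arrays share the estimate of spread. P-values are two-sided and adjusted by Benjamini-Hochberg over all genes at a threshold of 0.05. The number of arrays limits the precision. The code was tested on simulated data.

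Members and lists were chosen with earlier results of these data known. Named genes are the 15 largest rises and falls among genes above background on all 8 arrays without overlap, the 10 largest by lower bound each way among genes above background in 1 hairpin group, up to 4 passing and 3 other members per list, and the core pluripotency and PRC2 genes. Genes named outside that rule are marked in the text, and a few that it names are not reported here.

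Same-numbered sh4 and shCTR samples deviated together (correlations 0.418 to 0.554), which is where the pairing comes from; each such pair also shares a slide, so number and slide are 1 block for the untreated arrays. Alternatives changed the scaling, background correction, dim-probe filter, probe choice, block, arrays and prior, and one, without both arrays the scanner software rated for evaluation, was chosen after seeing the data. RefSeq promoters were at hand for 56.9% of tested genes, under the 80% needed, so a check of promoter composition by group is void.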

Additional observations from a re-analysis of the deposited data

Results flagged for a closer look

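In 32 of 550 groups of 4 values of the named genes, 1 array lay far from the others, against about 28 that chance gives at 1 in 20 groups. The number in brackets is the gap of that array to the nearest other array as a share of the whole range of its group, in log2 levels. The array of sh4 replicate 1 was high for Cldn8 (0.842) and Prdm14 (0.843) and low for Cysltr1 (0.83), Efnb2 (0.876), Egr1 (0.912), Epop (0.923), Lif (0.867) and Pou5f1 (0.922). The array of sh4 replicate 2 was high for Il33 (0.858), Krt80 (0.974), Phf1 (0.918) and Pramel7 (0.831) and low for Patj (0.832). The array of sh4 replicate 3 was high for H2-K1 (0.847) and low for Cdh22 (0.953), Srgn (0.921) and T (0.882). The array of shCTR replicate 1 was high for Aqp8 (0.938), Efna1 (0.842) and Piwil4 (0.902) and low for Ccn1 (0.888), Csf1 (0.887) and Tap1 (0.941). The array of shCTR replicate 2 was high for Gclm (0.879) and low for Rif1 (0.904) and Stat3 (0.889). The array of shCTR replicate 3 was high for Dusp4 (0.848) and Sox7 (0.959) and low for Rbbp4 (0.852) and Wnt3 (0.997). The array of shCTR replicate 4 was high for Jak1 (0.913) and low for Slc23a1 (0.836). The cause was not tested.

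For 17 of the 19 genes whose effect in retinoic acid is given, the hairpin effect differed between the treatments by the test of the difference in limma. Over all genes tested that share was 20.4%. These genes were named for their untreated changes, which enter the difference, so a high count is likely by the choice itself and adds no support. The effect in retinoic acid minus the untreated effect, in log2 units, was -3.61 for Acta1, -4.71 for Cdx2, -3.76 for Csf1, -5.33 for Enpp2, -3.65 for Gbp2, -3.98 for Krt18, -3.69 for Krt8, -2.80 for Psmb8, -5.51 for Slc23a1, -0.88 for Srgn, -4.05 for Thbs1 and -3.004 for Wnt4. It was 2.82 for Cdh22, 1.56 for Hal, 3.31 for Nkx6-3, 0.85 for Pdgfra and 2.00 for Rac2. The adjusted p of these differences ran from 8.9e-10 to 0.0093. Nostrin and Aqp8 did not pass that test (adjusted p = 0.91 and 0.16).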

How the results depend on the processing

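The count of changed genes (7155) stayed within 1.5 times under 11 of 12 alternative settings that keep all replicates of a group, from 4968 with median scaling to 9064 with slide as a block, and was 4634 with normexp correction. It was 8153 with the replicate block and 5745 on the authors' deposited log2 values. Without both arrays the scanner software rated for evaluation, an alternative chosen after seeing the data, it was 6262. Rises numbered 2180 with median scaling and 2042 with normexp correction against 3612. Genes with a called difference between treatments numbered 2963 and 3048 under these 2 settings and 5999 with the replicate block, against 5122. Leaving out each array in turn gave 6336 to 7103 changed genes and 4277 to 4953 differences between treatments. Normexp correction moved the median difference between treatments over all genes from 0.011 to 0.115. Called list members numbered 451, and 351 to 507 over the alternatives.

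Normexp correction gave the opposite sign for Col3a1 (-0.068), Erap1 (-0.0067), Inhba (-0.012), Irf2 (-0.032) and Lum (-0.057), all dim in shCTR, and the cause was not tested for these or for the counts above. Of 189 named genes that passed, 30 lost the call with normexp correction and 7 when an array was left out. The authors' deposited log2 values ended the calls of Psma7 and of Col3a1, Gbp4, Gbp9, Inhba, Islr, Lif, Lum, Olfr850 and S100g, of which all but Psma7 were lost with normexp correction too. Those of Gbp4, Gbp9, Gsc, Prdm14, Psma7, Tfcp2l1 and Zfp42 were lost without both arrays rated for evaluation, and those of Gbp9, Psma7 and Zfp42 also with median scaling and quantile normalisation. With the replicate block 7072 of the 7155 calls remained, and it ended no call of a named gene. Slide as a block let 15 named genes pass that did not pass in the main fit. Signal over background limits what dim genes show: their fold changes depend on the correction.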
